A study of Mus musculus with 20 samples.

Results

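The genes described here are 6 matrix metalloproteinases and 3 tissue inhibitors of metalloproteinases, 9 genes of the 24795 in the expression table. They were chosen by name, as the rows of the table called Mmp7, Mmp2, Mmp10, Mmp13, Mmp14, Mmp15, Timp1, Timp2 and Timp3. All 9 were found, and all 9 were among the 12433 genes that reached at least 1 RPKM (reads per kilobase of gene, scaled to the reads of the library) in at least 6 libraries and were tested. RNA was sequenced from mouse intestinal material of 3 groups: 7 WT libraries without treatment, 7 Apc Min libraries with a control treatment and 6 Apc Min libraries with DM-aKG treatment. Apc Min mice carry a truncating allele of Apc, whose product restrains beta-catenin signalling, and they form adenomas in the intestine. The compound DM-aKG, dimethyl alpha-ketoglutarate, is an ester that carries the metabolite alpha-ketoglutarate into cells, so the comparison of the Apc Min groups asks what the compound changed and the comparison with WT gives the level without the Apc allele. The titles call the samples tissue, while the other fields of every sample, WT included, name intestinal organoids, an organoid medium and a low glutamine medium, and the labels do not settle which holds. They give no age, dose, duration or segment of the intestine, and do not say whether libraries of a group came from separate mice, so the spread that the p-values rest on is that of these libraries and may be technical. Depth, estimated from the step between low values, was 21.2 to 29.3 M reads per library. Over the libraries, epithelial markers summed to 2934 to 7554 RPKM, smooth muscle markers to 328.1 to 1386 and lymphocyte markers to 40.6 to 734.6. Every library thus held RNA of muscle and immune cell genes beside epithelial ones.

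Matrix metalloproteinases are zinc-dependent proteases that cut collagens, laminins, proteoglycans and many cell surface and secreted proteins. Most are secreted as inactive precursors and a smaller group is anchored in the cell membrane. The tissue inhibitors bind the active site of the enzymes, and TIMP-2 also takes part in the activation of pro-MMP-2 at the cell surface by MT1-MMP, the product of Mmp14. In the healthy small intestine Mmp7 (matrilysin) is best known from Paneth cells, where it processes alpha-defensin precursors, and it is also expressed in intestinal adenomas. Several of these enzymes are mainly stromal products in other tissues, so cell composition matters for bulk RNA: fewer cells of a type and less RNA per cell cannot be told apart here.

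Expression of the whole group was higher in control Apc Min than in WT libraries, and 7 of its 9 members were lower again with DM-aKG. All 9 members were called higher in control Apc Min than in WT, where 43.2% of all tested genes were called higher and 15.7% lower. With DM-aKG, 7 of the 9 were lower than in control Apc Min and none was higher, against 27.6% of all tested genes called lower and 5.91% called higher. The 2 exceptions were Timp2 and Timp3. A gene was called where limma, fitted over all tested genes and 3 groups, gave an adjusted p (Benjamini-Hochberg) under 0.05, and differences are given on the scale of log2(RPKM + 1), which understates the change of genes at low levels. The median difference of the members was -1.36 for DM-aKG against control, where that of all tested genes was -0.14, and 2.16 for control against WT, where that of all tested genes was 0.20. The 2 comparisons share the control libraries. Scalings that centre the libraries on each other moved the median of all genes to 0.02 and -0.01, so that the values below hold a shift of that size. They also changed the split of all calls for DM-aKG against control from 735 higher and 3432 lower to 1750 and 1849 under quantile normalization and to 1532 and 1718 under median-of-ratios scaling.

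**Figure D1:**
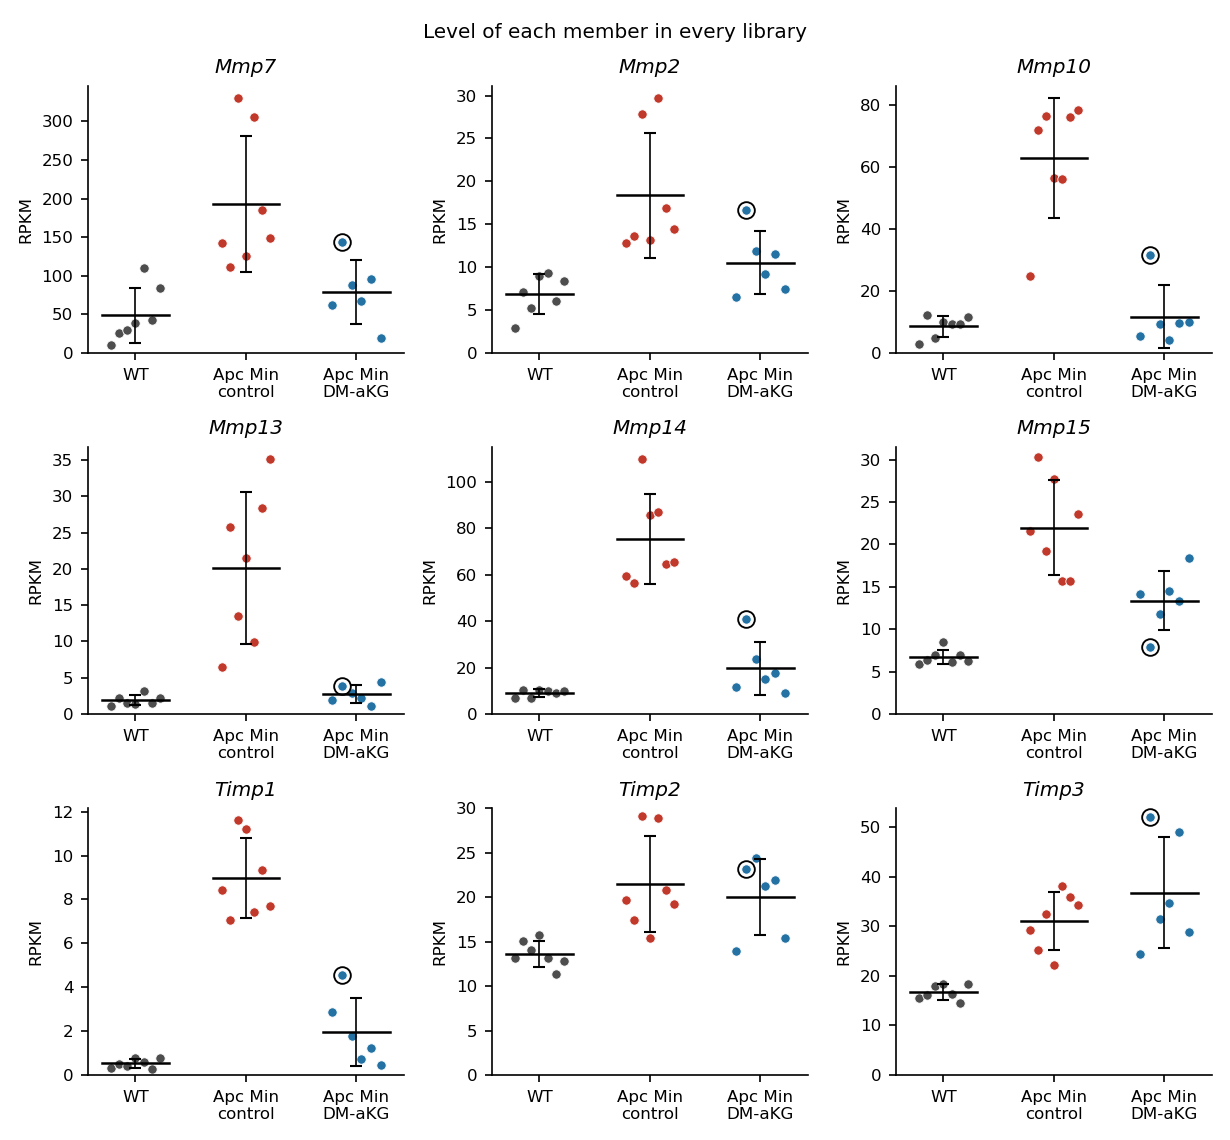
RPKM (vertical axis, linear, from 0) of each member in every library of the 3 groups. Points are libraries, horizontal bars the group mean, error bars 1 SD, and the circled point is DM-aKG replicate 2. For Mmp13, Mmp14 and Timp1 all 6 DM-aKG libraries lie below all 7 control Apc Min libraries.

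The secreted enzymes are described first. Mmp10 (stromelysin-2), an enzyme of broad substrate range that also activates other pro-MMPs, was at 2.91, 9.31 and 12.3 RPKM in the lowest, median and highest WT library. In control Apc Min it was at 24.9, 72.0 and 78.4 RPKM, above every WT library. With DM-aKG the lowest, median and highest were 4.06, 9.54 and 31.7 RPKM, and 5 of the 6 libraries lay below all controls; the exception, replicate 2, stood above only the lowest control. The mean was 5.38 times lower with DM-aKG than in control (11.7 ± 10.1, n = 6, against 62.9 ± 19.2, n = 7, mean ± SD), a difference of -2.54 (SE 0.37, limma adjusted p = 2.9e-05). Without replicate 2 the DM-aKG mean was 7.68 ± 2.77 RPKM (n = 5), below the WT mean of 8.62 ± 3.47 (n = 7), while limma gave -0.11 for that comparison (adjusted p = 0.817).

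Mmp13 (collagenase-3) cleaves fibrillar collagen. It was at 1.04, 1.59 and 3.13 RPKM in the lowest, median and highest WT library, at 6.52, 21.5 and 35.1 in control Apc Min, and at 1.12, 2.58 and 4.48 with DM-aKG. Control libraries varied widely among themselves and still overlapped neither other group. The mean fell 7.27-fold with DM-aKG, from 20.1 ± 10.5 (SD, n = 7) to 2.76 ± 1.27 RPKM (SD, n = 6). This was the largest ratio among the members for the treatment comparison (log2 difference -2.37, SE 0.31, limma adjusted p = 6.93e-06).

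Mmp7 was the most abundant member in every group and in WT ran from 10.7 to 110.8 RPKM with a median of 38.3. It was at 111.9, 149.5 and 330.0 RPKM in the lowest, median and highest control Apc Min library, and at 19.95, 77.6 and 144.2 with DM-aKG. No control library lay below the highest WT library, and 5 of 6 DM-aKG libraries lay below all controls. The mean was 2.43 times lower with DM-aKG than in control (79.5 ± 41.3 against 192.9 ± 88.5 RPKM, SD, n = 6 and 7), with a difference of -1.36 (SE 0.46, limma adjusted p = 0.0277). That call was lost without DM-aKG replicate 6, the library with the least Mmp7 (-1.02, adjusted p = 0.0783), without control replicate 3 (0.0581) or replicate 5 (0.0566), the libraries with the most, and under median-of-ratios scaling (0.0573).

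Mmp2 (gelatinase A) digests denatured collagen and basement membrane collagen. It was at 2.93, 7.14 and 9.36 RPKM in the lowest, median and highest WT library, at 12.8, 14.4 and 29.8 in control Apc Min, and at 6.49, 10.4 and 16.6 with DM-aKG. The smallest control value exceeded every WT value, and DM-aKG replicate 2 was the only treated library inside the control range. Its fall with DM-aKG was 1.74-fold in the means (10.5 ± 3.67 against 18.4 ± 7.27 RPKM, SD, n = 6 and 7; log2 difference -0.73, SE 0.25, limma adjusted p = 0.0285). This call was the least stable of the group: it was lost under 9 of 32 alternative settings, with quantile normalization (-0.59, adjusted p = 0.0697), median-of-ratios scaling (-0.55, 0.0938) and the omission of control replicate 3 or 5 or of DM-aKG replicate 1, 4 or 6 (0.052 to 0.0749) among them.

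Of the membrane-anchored enzymes, Mmp14 changed most. It encodes MT1-MMP, a pericellular collagenase and the main activator of pro-MMP-2. WT libraries were tightly grouped at 6.84 to 10.5 RPKM with a median of 9.88, control Apc Min libraries were at 56.3 to 109.8 with a median of 65.6, and DM-aKG libraries at 9.19 to 40.7 with a median of 16.4. No DM-aKG library reached the lowest control library. The mean was 3.85 times lower with DM-aKG than in control (19.6 ± 11.5 against 75.5 ± 19.3 RPKM, SD, n = 6 and 7; log2 difference -2.02, SE 0.24, limma adjusted p = 2.57e-06). It remained 2.16 times above the WT mean of 9.08 ± 1.54 (n = 7; difference 0.89, adjusted p = 0.00718), and 5 of 6 DM-aKG libraries were above all WT libraries.

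Mmp15, which encodes MT2-MMP, had its extremes opposite to those of Mmp14 among the treated libraries. It was at 5.87 to 8.52 RPKM in WT, 15.7 to 30.3 in control Apc Min and 7.89 to 18.4 with DM-aKG, with medians of 6.43, 21.6 and 13.7. Here DM-aKG replicate 2 was the lowest treated library and replicate 6 the highest, whereas for Mmp14 replicate 2 was the highest and replicate 6 the lowest. The WT libraries did not show this, and WT replicate 1 was the lowest for both genes. Within groups the 2 transcripts had a Pearson r of -0.62 over the 20 libraries (each value taken as its difference from its group mean), and r was 0.75 without removing the group means. The mean fell 1.65-fold with DM-aKG (13.4 ± 3.47 against 21.98 ± 5.62 RPKM, SD, n = 6 and 7; log2 difference -0.68, SE 0.16, limma adjusted p = 0.00316) and stayed above WT by 0.86 (adjusted p = 0.000504).

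The inhibitors split into Timp1 on the one side and Timp2 and Timp3 on the other. Timp1, an inducible secreted inhibitor of most soluble metalloproteinases, was at 0.268 to 0.786 RPKM in WT with a median of 0.518, at 7.09 to 11.6 in control Apc Min with a median of 8.43, and at 0.448 to 4.57 with DM-aKG with a median of 1.52. Its mean was 16.95 times higher in control than in WT, the largest such ratio among the members (8.97 ± 1.82 against 0.529 ± 0.202 RPKM, SD, n = 7 and 7). With DM-aKG the mean was 4.62 times lower than in control (1.94 ± 1.55, n = 6; log2 difference -1.90, SE 0.23, limma adjusted p = 2.76e-06). The lowest WT value of Timp1 rests on about 7 reads, so that its WT ratios carry more counting error than those of the other members, whose lowest values rest on at least 76.

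Timp2, the inhibitor that pairs with MT1-MMP and pro-MMP-2, was at 11.3 to 15.8 RPKM in WT, 15.4 to 29.1 in control Apc Min and 13.9 to 24.4 with DM-aKG, with medians of 13.1, 19.6 and 21.6. Control and DM-aKG libraries overlapped over most of their range (21.5 ± 5.42, n = 7, and 20.02 ± 4.32, n = 6, mean ± SD), and the difference was -0.09 with a 95% interval from -0.40 to 0.22 (limma adjusted p = 0.665). Its sign turned to 0.07 under quantile normalization and 0.09 under median-of-ratios scaling. Timp3, an inhibitor bound to the matrix that also blocks ADAM and ADAMTS proteases, was at 14.4 to 18.4 RPKM in WT, 22.2 to 38.1 in control Apc Min and 24.5 to 52.0 with DM-aKG, with medians of 16.3, 32.5 and 33.0. The means of the Apc Min groups were 31.1 ± 5.78 (n = 7) and 36.7 ± 11.2 (n = 6), with a difference of 0.21 and an interval from -0.12 to 0.53 (adjusted p = 0.32). Timp3 was the single member with no overlap between DM-aKG and WT (difference 1.04, adjusted p = 5.52e-05), where 17.1% of all tested genes did not overlap.

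In the comparison of control Apc Min with WT, Mmp14 (2.90), Mmp10 (2.76), Mmp13 (2.72) and Timp1 (2.70) had the largest log2 differences, followed by Mmp7 (2.16), Mmp15 (1.54), Mmp2 (1.29), Timp3 (0.84) and Timp2 (0.59). The limma adjusted p ran from 3.95e-09 for Mmp14 to 0.00145 for Timp2. The ranges of the groups did not overlap for 8 members, all but Timp2, against 26.1% of tested genes. In the comparison of DM-aKG with control, 3 members did not overlap, Mmp13, Mmp14 and Timp1, against 8.92% of tested genes.

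In DM-aKG against WT, 5 members remained higher: Mmp14, Mmp15, Timp1 (0.80, limma adjusted p = 0.00997), Timp2 (0.50, 0.0122) and Timp3. Of all tested genes 21.9% were higher and 17.3% lower in that comparison, and no member was lower. None of the 4 secreted enzymes passed the test: Mmp7 differed by 0.80 (95% interval -0.16 to 1.76), Mmp2 by 0.56 (0.04 to 1.07), Mmp10 by 0.22 (-0.55 to 0.99) and Mmp13 by 0.35 (-0.29 to 0.99), with adjusted p of 0.173, 0.0776, 0.652 and 0.377. These intervals are wide enough to hold a sizeable remaining difference, so the values do not show that these genes had returned to the WT level.

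**Figure D2:**
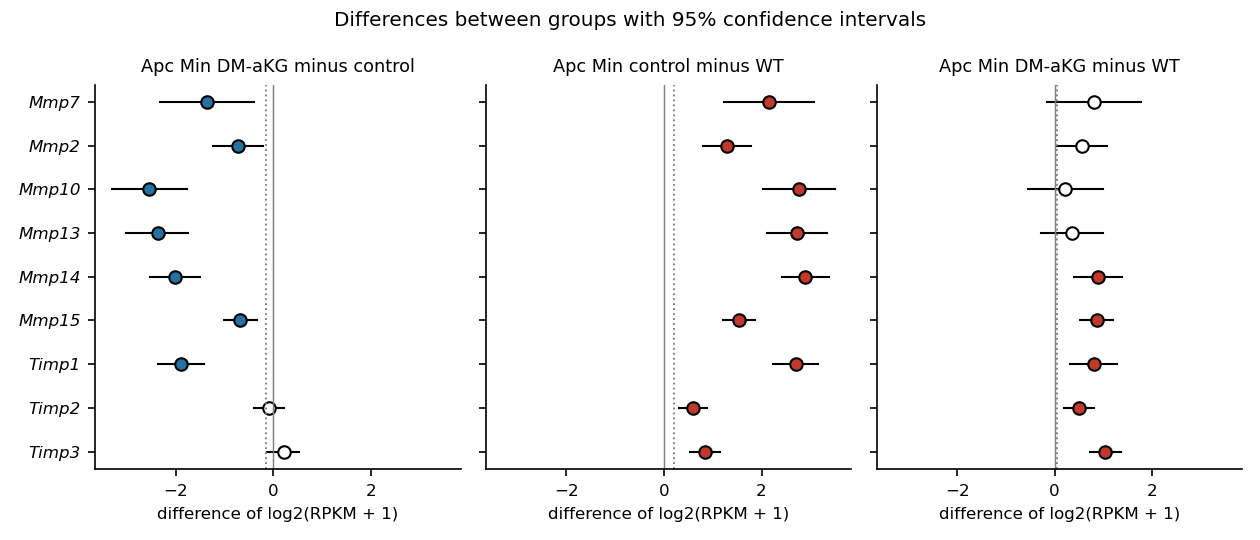
Differences in log2(RPKM + 1) between groups for the 9 members (horizontal axis) with 95% confidence intervals from limma, 1 panel a comparison. Filled points passed an adjusted p under 0.05 (blue lower, red higher), open points did not, and the dotted line is the median of all tested genes (-0.14, 0.20 and 0.05). The secreted enzymes are the open points in the right panel, and Timp2 and Timp3 those in the left.

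Because Timp2 and Timp3 did not fall with the enzymes while Timp1 did, the ratio of enzyme to inhibitor transcripts depended on the pair. Per library, the ratio of Mmp14 to Timp2 RPKM was 0.497 to 0.801 in WT, 3.01 to 5.56 in control Apc Min and 0.598 to 1.76 with DM-aKG. The medians were 0.693, 3.24 and 0.817. Mmp14 exceeded Timp2 in all 7 control libraries and in no WT library, and with DM-aKG the single library above 1 was replicate 2. The ratio of Mmp14 to Timp3 ran from 0.391 to 0.653 in WT, from 1.81 to 3.85 in control and from 0.318 to 0.784 with DM-aKG. The other 2 pairs computed did not part the groups in this way. Mmp2 relative to Timp2 was at 0.223 to 0.714 in WT, 0.650 to 1.03 in control and 0.435 to 0.717 with DM-aKG, so that all groups overlapped. Mmp10 relative to Timp1 went the other way from WT to control only, with medians of 14.8 in WT, 7.56 in control and 6.32 with DM-aKG. Its ranges were 8.85 to 34.7, 2.96 to 10.2 and 1.86 to 22.1 in the same order, so that all groups overlapped here too. Among the inhibitors, Timp1 relative to Timp3 was at 0.0186 to 0.0428 in WT, 0.194 to 0.504 in control and 0.0155 to 0.118 with DM-aKG. These ratios describe transcripts, were built after the single genes had been tested, and carry no test of their own.

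**Figure D3:**
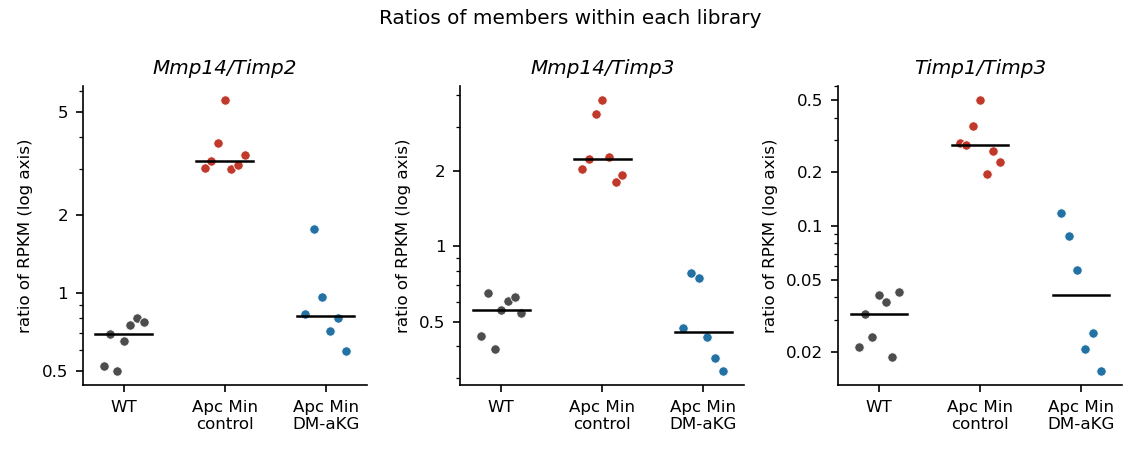
Ratio of RPKM values (vertical axis, log scale) within each library for Mmp14 over Timp2, Mmp14 over Timp3 and Timp1 over Timp3. Points are libraries and bars group medians. All 7 control Apc Min libraries lie above every WT and DM-aKG library in each panel.

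The order of levels also changed. In WT it ran from Mmp7 (49.1 RPKM) through Timp3 (16.7), Timp2 (13.6), Mmp14, Mmp10, Mmp2 and Mmp15 (6.73) to Mmp13 (1.88) and Timp1 (0.529). Neighbours in this order overlapped between libraries except Timp2 and Mmp14, Mmp15 and Mmp13, and Mmp13 and Timp1. In control Apc Min, Mmp14 and Mmp10 stood directly after Mmp7, ahead of Timp3 (31.1), and only the steps from Mmp7 to Mmp14 and from Mmp2 to Timp1 did not overlap. With DM-aKG the order began Mmp7, Timp3, Timp2, Mmp14, as in WT, and the steps from Timp3 to Timp2 and from Mmp2 to Mmp13 did not overlap. Timp1 was last in every group.

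DM-aKG replicate 2 stood apart from the other treated libraries. It was the highest of 6 for Mmp7, Mmp2, Mmp10, Mmp14, Timp1 and Timp3 and the lowest for Mmp15. The same library was highest for other genes of the lists used here: Plat was at 125.8 RPKM against 4.79 to 32.4 in the other treated libraries, and Etv4 at 4.13 against 0.14 to 0.68. Leaving it out made the difference from control larger for 6 of the 7 called members (Mmp10 -2.87, Mmp13 -2.47, Mmp14 -2.25, Timp1 -2.11, Mmp7 -1.58 and Mmp2 -0.86) and smaller for Mmp15 (-0.55), and all 7 were called without it. For DM-aKG against WT, leaving it out turned the sign of Mmp10 and left Timp1 (0.58, adjusted p = 0.025) and Mmp14 (0.65, 0.0156) called.

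An earlier look at these data had parted the libraries into replicates 1 to 4 and 5 to 7, which the labels do not call batches. The precursor ribosomal RNA Rn45s was at 3836 to 6558 RPKM in the first set of 12 libraries and at 1078 to 3621 in the second set of 8. Within the sets, Mmp10 differed between DM-aKG and control by -2.40 and -2.69, Mmp13 by -2.13 and -2.73, Mmp14 by -1.83 and -2.40 and Timp1 by -1.71 and -2.34, and these were called in both. Mmp15 differed by -0.99 in the first set (limma adjusted p = 0.00466) and by -0.19 in the second (0.526), Mmp7 by -0.90 (0.163) and -2.19 (0.0449), and Mmp2 by -0.56 (0.283) and -0.99 (0.0578). A test of the difference of the effect between the sets called 0.209% of tested genes and no member by limma. At an unadjusted p under 0.05 it held 1460 genes and 1 member, Mmp15 (difference 0.80, limma adjusted p = 0.388). For control against WT, Mmp7 was not called in the second set (1.46, adjusted p = 0.0827) and Timp2 not in the first (0.43, 0.0944). For DM-aKG against WT, Mmp7 was called in the first set (1.78, 0.00955) and was at -0.73 in the second (0.483), Mmp14 (0.37, 0.347) and Timp1 (0.23, 0.525) were not called in the second, and Timp2 was called in neither (0.46, 0.095, and 0.53, 0.15).

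**Figure D4:**
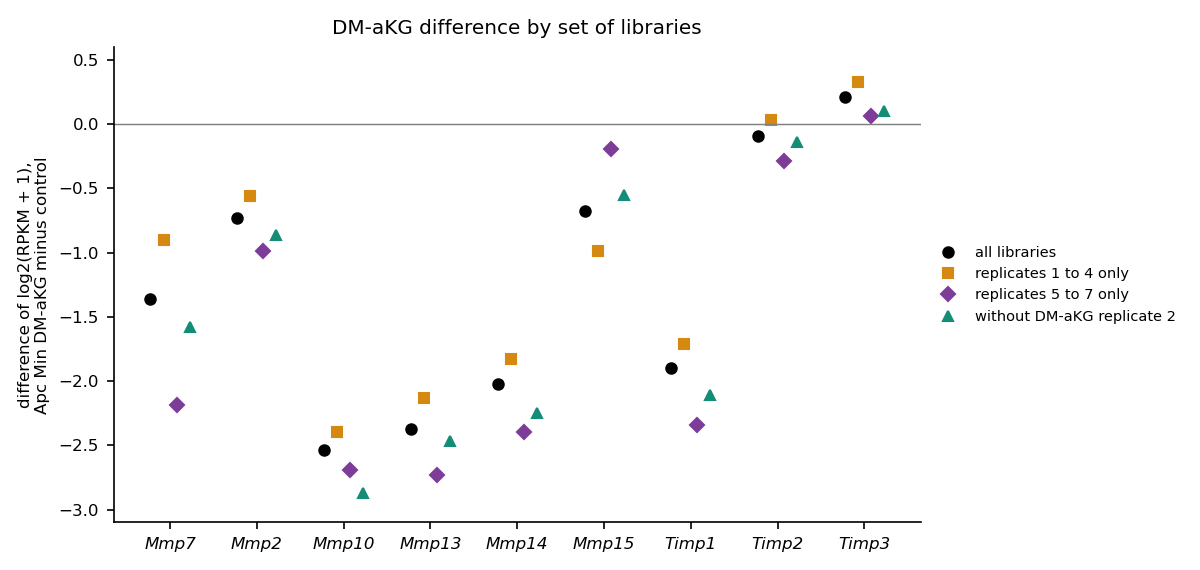
Difference in log2(RPKM + 1) between DM-aKG and control Apc Min (vertical axis) for each member, fitted on all libraries, within replicates 1 to 4, within replicates 5 to 7, and without DM-aKG replicate 2. Mmp10, Mmp13, Mmp14 and Timp1 stay between -1.71 and -2.87 in all 4 fits.

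The secreted enzymes Mmp13, Mmp10 and Mmp7 share a place in the genome. In the GENCODE M21 annotation of the mm10 build (GRCm38), Mmp13 (chr9:7272514-7283331), Mmp10 (chr9:7502352-7510240) and Mmp7 (chr9:7692090-7699585), all on the plus strand, lie within 427 kb of chromosome 9 together with Mmp12, Mmp1b, Mmp3, Mmp1a, Mmp8, Mmp27 and Mmp20. This is the metalloproteinase cluster of duplicated genes. Of its 10 genes, 4 passed the filter on low values, the 3 members and Mmp12. Mmp3 did not pass and was at a mean of 0.130 RPKM in WT, 2.01 in control Apc Min and 0.880 with DM-aKG, while Mmp1b was listed at 0 in every library and Mmp1a, Mmp8, Mmp20 and Mmp27 stayed under 0.448. Mmp20 and Mmp27, between Mmp10 and Mmp7, were thus near the bottom of the scale in control libraries in which Mmp10 was at 24.9 RPKM or more and Mmp7 at 111.9 or more.

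The remaining members are scattered: Mmp2 (chr8:92827291-92853420) and Mmp15 (chr8:95352268-95375080), Mmp14 (chr14:54431612-54445364), Timp1 (chrX:20870166-20874735) and Timp3 (chr10:86300372-86349506) on the plus strand, and Timp2 (chr11:118301069-118355740) on the minus strand. Some members overlap other genes. The antisense gene AV064505 shares exon bases with Mmp7 and was at up to 0.2 RPKM, Syn3 shares exon bases with Timp3 on the opposite strand and was at 0.174 to 0.722, and Syn1 spans Timp1 on the opposite strand without shared exon bases and was at 0.479 to 2.74. Cep295nl overlaps Timp2 on the same strand without shared exon bases and was at 0.0183 to 0.148. Whether the counting used strand is not given in the sources used here, so reads of a gene and its antisense partner cannot be told apart.

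The sequences just before the transcription start differed between the members that fell most. RefSeq windows (build GRCm38.p6) of 250 bases before the start matched 8 of the 9 members. They are shown for the 3 members of the chromosome 9 cluster and for Mmp14 and Timp1, which, like Mmp10 and Mmp13, were called lower under all 32 alternative settings. Capitals mark the AP-1 site motif TGANTCA, searched on both strands (its reverse complement is the same motif). The windows are chr9:7691840-7692089 for Mmp7, chr9:7502092-7502341 for Mmp10, chr9:7272264-7272513 for Mmp13, chr14:54431348-54431597 for Mmp14 and chrX:20869916-20870165 for Timp1, all on the plus strand, written 5′ to 3′.
Mmp7: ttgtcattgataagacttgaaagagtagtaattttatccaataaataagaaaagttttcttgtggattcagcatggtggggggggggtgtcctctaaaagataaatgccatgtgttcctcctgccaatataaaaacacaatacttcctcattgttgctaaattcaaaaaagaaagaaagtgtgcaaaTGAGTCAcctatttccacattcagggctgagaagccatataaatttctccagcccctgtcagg
Mmp10: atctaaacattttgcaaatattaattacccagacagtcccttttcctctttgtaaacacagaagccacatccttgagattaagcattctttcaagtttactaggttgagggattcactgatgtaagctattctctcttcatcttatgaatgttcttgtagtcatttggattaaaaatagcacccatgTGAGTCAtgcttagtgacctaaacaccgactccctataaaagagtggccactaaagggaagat
Mmp13: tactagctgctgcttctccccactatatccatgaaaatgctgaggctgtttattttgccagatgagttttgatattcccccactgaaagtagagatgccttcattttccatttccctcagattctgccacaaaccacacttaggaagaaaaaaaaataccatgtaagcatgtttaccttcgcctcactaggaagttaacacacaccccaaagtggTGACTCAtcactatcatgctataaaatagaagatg
Mmp14: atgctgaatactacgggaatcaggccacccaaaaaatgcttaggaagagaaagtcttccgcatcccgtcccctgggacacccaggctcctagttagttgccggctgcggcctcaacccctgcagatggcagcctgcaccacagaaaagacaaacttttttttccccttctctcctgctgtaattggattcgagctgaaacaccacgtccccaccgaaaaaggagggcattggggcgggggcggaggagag
Timp1: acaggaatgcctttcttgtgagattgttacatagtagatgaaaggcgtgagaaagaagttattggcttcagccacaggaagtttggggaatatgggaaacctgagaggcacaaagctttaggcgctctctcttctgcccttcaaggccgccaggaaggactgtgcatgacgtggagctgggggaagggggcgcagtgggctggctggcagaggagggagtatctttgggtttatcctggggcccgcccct

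The motif began 63 bases before the start in Mmp7 and in Mmp10 and 35 bases before it in Mmp13. It was not in the windows of Mmp14, Mmp15, Timp1, Timp2 or Timp3, and 6.75% of the 32851 windows of the same length held it. In the whole cluster, 7 of the 10 genes held it in their first window, Mmp1a, Mmp1b, Mmp3 and Mmp20 besides the members, so that genes at or near 0 RPKM carry it as well. The TATA motif TATAAA, searched on both strands, stood in the windows of the same 3 members and in 12.4% of all windows. RefSeq gives Mmp7 a second start, whose window (chr9:7692091-7692340) held neither motif but held the TCF/LEF motif CTTTGAT, which 3.21% of all windows and no other member window held. That window lies inside the gene, directly after its GENCODE start at 7692090, and the match is near the start of the window. The ETS motif AGGAAG stood in both windows of Mmp7 and in those of Mmp13, Mmp14, Timp1 and Timp3 (29.5% of all windows), and the SP1 motif GGGCGG in those of Mmp14, Mmp15, Timp1, Timp2 and Timp3 (32.7%). The shorter TCF/LEF core CTTTG, held by 48.6% of all windows, was in those of Mmp10, Mmp13, Mmp15 and Timp1 and in the second of Mmp7. All motifs were searched on both strands. A match describes letters in this window and is not a measurement of binding.

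The AP-1 and ETS factors are the transcription factor families usually named as inducers of metalloproteinase genes. Of the 12 listed, 7 were lower with DM-aKG than in control and none was higher, with a list median of -0.68. For this and the next lists, 27.6% of all tested genes were lower with DM-aKG and 5.91% higher. Etv5 (-2.87, limma adjusted p = 2.71e-07) and Etv4 (-2.10, 6.27e-06), ETS factors of the PEA3 subfamily, had the largest differences, followed by Fosl1 (-1.06), Elf3 (-0.89), Jun (-0.83), Junb (-0.67) and Ets1 (-0.48). Fos, Fosb, Fosl2, Jund and Ets2 did not pass. Against WT, 7 of the 12 were higher in control Apc Min and 1, Fos, was lower, where 43.2% of all tested genes were higher and 15.7% lower. All 10 readouts of Wnt signalling, among them Lef1 (-1.81), Tcf7 (-2.01), Nkd1 (-2.69) and Axin2 (-1.86), were lower with DM-aKG and higher in control than in WT. Of the listed cytokines and cytokine antagonists 5 were tested, and 4 were lower with DM-aKG: Tgfb1 (-0.81), Il1a (-0.99), Il11 (-1.44) and Il1rn (-2.74, limma adjusted p = 9.56e-07), which encodes the receptor antagonist that blocks interleukin-1. Il1b was not called, and all 5 were higher in control than in WT. Il1a reached 1 RPKM in control libraries only, and Il11, Etv4, Fosl1 and Lef1 only there and in DM-aKG replicate 2. These genes thus passed the filter through the group where they were high, and their direction was partly fixed by it.

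Of the other 17 metalloproteinase genes, 7 passed the filter on low values, and 5 of these were lower with DM-aKG. Of all tested genes 27.6% were lower. Mmp9 (gelatinase B) fell by 1.68 on the log2 scale (adjusted p = 8.71e-06), from 2.89 to 9.10 RPKM in control Apc Min to 0.674 to 2.18 with DM-aKG, with no overlap. It was the single one of them that also lay below WT with DM-aKG (-0.68, adjusted p = 0.0197). Mmp19 (-0.72), Mmp12 (macrophage elastase, -0.68), Mmp28 (-0.62) and Mmp11 were also lower, Mmp23 was not called and Mmp17, a membrane-anchored enzyme, was higher (0.40, adjusted p = 0.0395). The same 5 genes were higher in control than in WT, and Mmp17 was lower (-0.53), where 43.2% of all tested genes were higher and 15.7% lower. Mmp12 reached 1 RPKM only in control libraries and DM-aKG replicate 6, so the filter partly fixed its direction. Of 5 other inhibitors 2 were tested: Reck, a membrane-anchored inhibitor, was higher with DM-aKG (0.36, adjusted p = 0.00433), and Tfpi2 was not called (0.21, 0.585). Timp4 did not pass the filter, with means of 0.187, 0.692 and 0.991 RPKM in WT, control and DM-aKG.

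**Figure D5:**
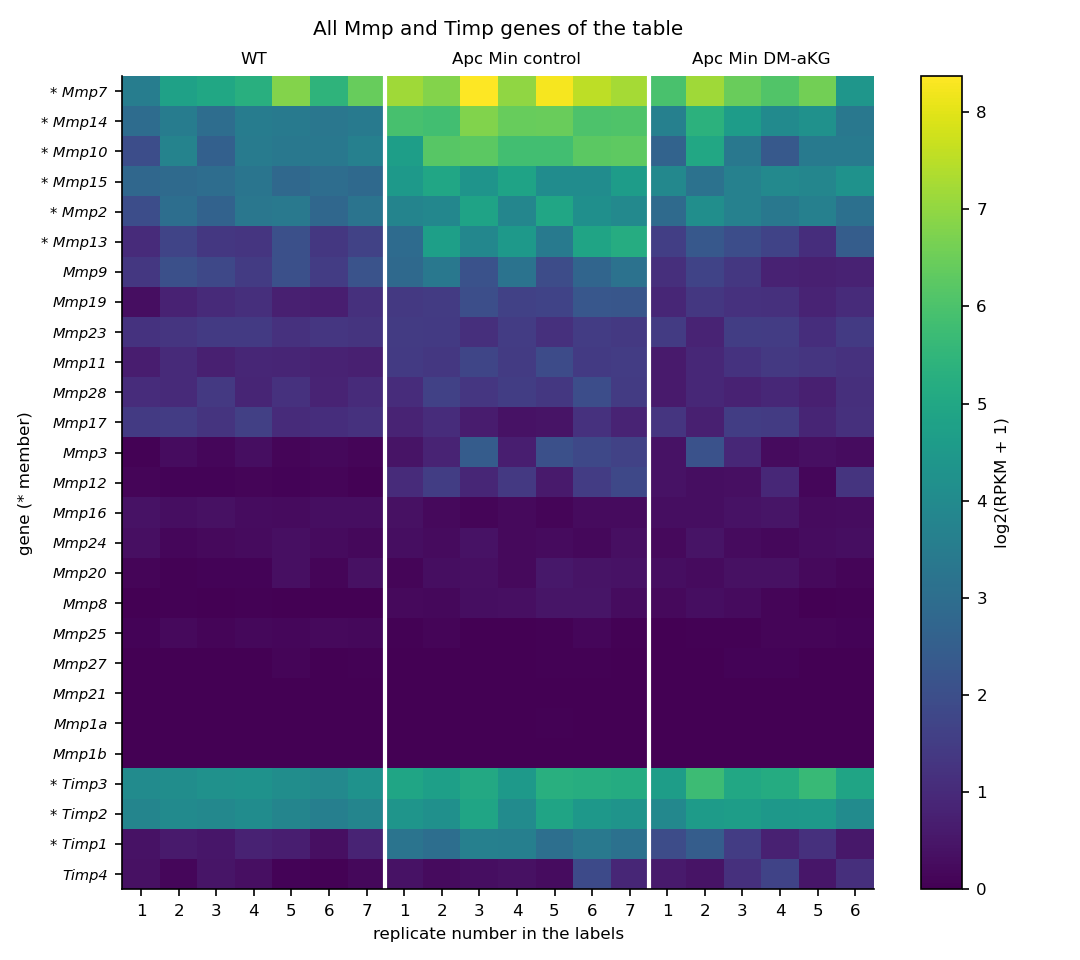
Level of all 27 Mmp and Timp genes of the table, as log2(RPKM + 1) (colour), in each of the 20 libraries (columns, by replicate number, grouped as WT, control Apc Min and DM-aKG). Members are marked with an asterisk, and genes are ordered by mean level within enzymes and inhibitors. The 6 member enzymes have the highest means over all 20 libraries among the Mmp genes, although in WT alone Mmp9 (2.48 RPKM) lies above Mmp13 (1.88).

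The plasminogen system, serine proteases that activate pro-MMPs and their inhibitors, moved with the members. All 7 tested genes of 9 were lower with DM-aKG and all 7 were higher in control than in WT, with list medians of -1.72 and 2.22. Of all tested genes 27.6% were lower and 43.2% higher in these comparisons. Serpinf2 reached 1 RPKM only in control libraries and DM-aKG replicate 2, so the filter partly fixed its direction. The inhibitors Serpinb5 (-2.02, limma adjusted p = 7e-07) and Serpine2 (-2.13, 9.56e-07) and the activators Plat (-2.52, 0.000164) and Plau (-1.72, 0.000288) are examples. Plat, tissue plasminogen activator, ran from 2.18 to 4.93 RPKM in WT, from 115.5 to 239.0 in control and from 4.79 to 125.8 with DM-aKG. Both activators and inhibitors of plasmin formation thus fell. A list of 11 genes held proprotein convertases and membrane serine proteases, which remove the propeptides of membrane-anchored enzymes or act beside them. It also held Spint1 and Spint2, which encode inhibitors of such proteases. Of the 11, 4 were lower with DM-aKG, Hpn (-0.91) among them, and Pcsk5 was higher (0.42, limma adjusted p = 0.000674). The list median was -0.33, and of all tested genes 27.6% were lower and 5.91% higher. Hpn reached 1 RPKM only in control libraries and DM-aKG replicate 2. Furin, the convertase that activates MT1-MMP, differed by -0.41 (adjusted p = 0.0685). Of 11 tested ADAM and ADAMTS proteases, 5 were lower, Adam8 (-1.71, 8.4e-08), Adam10 (-0.97, 2.44e-07), Adam17 (-0.44), Adam9 (-0.55) and Adamts2. The median of that list was -0.34.

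Transcripts of matrix proteins that these enzymes cut followed the same direction. Of 21 tested, 14 were lower with DM-aKG and none higher, and 19 were higher in control Apc Min than in WT, with list medians of -0.73 and 1.09. Of all tested genes 27.6% were lower and 43.2% higher in these comparisons. Spp1 reached 1 RPKM in control libraries only, so the filter partly fixed its direction. Osteopontin, Spp1 (-1.76, limma adjusted p = 3.13e-07), and the fibrillar collagens Col1a1 (-2.40, 3.91e-07), Col1a2 (-1.35) and Col5a2 (-1.34) had the smallest p. Fn1, Eln, Fbn1, Tnc, Dcn, Bgn and Col6a1 did not pass. Against WT, 14 of the 21 did not pass with DM-aKG, 6 were higher and 1, Col6a3, was lower, where 21.9% of all tested genes were higher and 17.3% lower.

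Markers of cell types that can express the members also differed between groups, and their part in the results above was not tested. Beside the counts below, 27.6% of all tested genes were lower with DM-aKG than in control and 5.91% were higher. Fibroblast markers summed to 134.3 to 229.9 RPKM in WT, 295.9 to 423.8 in control Apc Min and 162.2 to 288.2 with DM-aKG. With DM-aKG 5 of 11 tested were lower than in control, 3 of them collagens that are also substrates, and Dpt was higher. Smooth muscle markers summed to 785.9 to 1386, 328.1 to 1161 and 679.7 to 1283 in the same order, and 9 of 10 were higher with DM-aKG. Neutrophil markers summed to 0.181 to 1.09, 6.77 to 58.1 and 1.58 to 41.8, with 1 of 4 tested lower, Ly6g. Ly6g made up most of the highest sums (44.6 of 58.1 RPKM in control replicate 5 and 32.5 of 41.8 in DM-aKG replicate 2), and the untested Cxcr2, Csf3r, Ngp and Camp were at or under 0.867 in every library. Macrophage and monocyte markers summed to 79.2 to 149.8, 60.6 to 92.9 and 46.5 to 88.3, with 2 of 9 lower. Endothelial markers summed to 15.1 to 35.0, 42.9 to 57.2 and 40.1 to 59.5, with 1 higher and 1 lower of 8. Lymphocyte markers summed to 256.4 to 734.6, 40.6 to 120.6 and 66.8 to 215.8, with none of 6 called by limma and 1, Jchain, at an unadjusted p under 0.05 (limma adjusted p = 0.0636). Epithelial markers summed to 5504 to 7554, 4026 to 6036 and 2934 to 4257, with 1 of 8 higher and 5 lower. No marker of any list was at 0 in every library.

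Most Paneth cell markers differed between groups in the direction opposite to Mmp7. Their sum was 1680 to 14880 RPKM in WT, 779.8 to 8550 in control Apc Min and 4270 to 15630 with DM-aKG. With DM-aKG 6 of 9 were higher than in control, such as the alpha-defensins Defa22 (3.53, limma adjusted p = 0.00159) and Defa24 (2.74, 0.000748), and 2 were lower, Habp2 (-2.11, 7.52e-05) and Pla2g2a (-2.65, 0.000135). Of all tested genes 5.91% were higher and 27.6% lower. In control against WT the same 2 were higher and the other 7 were lower, where 43.2% of all tested genes were higher and 15.7% lower. The gap with DM-aKG was wide in replicates 1 to 4, where Defa22 was at 43.4 to 91.8 RPKM in control and 2056 to 4922 with DM-aKG. In replicates 5 to 7 the groups overlapped, with Defa22 at 456.2, 2144 and 1195 in control and 2720 and 1128 with DM-aKG. Lyz1 overlapped there as well (560.1, 2070 and 1165 against 1809 and 1126), as did Defa5 (177.4, 837.8 and 458.0 against 756.8 and 265.1). Between groups Mmp7 thus went the way of Habp2 and Pla2g2a and opposite to the defensins, whose precursors its product processes. Among the 7 WT libraries Mmp7 was not opposite to the defensins, and it went the way of Habp2 there too. Mmp7, Habp2, Lyz1 and Defa5 had the same WT order, from replicate 1 (10.7, 0.701, 373.3 and 38.7 RPKM) to replicate 5 (110.8, 5.60, 3454 and 1290). In that order replicates 1 to 4 all lay below replicates 5 to 7, with WT means of Mmp7 of 26.5 and 79.2 RPKM. Defa24 also had this order, while Defa22, Ang4, Itln1, Mptx2 and Pla2g2a did not. For Defa22, WT replicate 6 (1174 RPKM) lay below WT replicates 3 and 4 (1347 and 1372). Habp2 was at 2.51 ± 2.0 (SD, n = 7) RPKM in WT, 25.3 ± 8.25 (SD, n = 7) in control and 5.36 ± 2.97 (SD, n = 6) with DM-aKG.

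Over the 20 libraries, the tested genes whose log2(RPKM + 1) was most like that of each member were found by Pearson correlation, which holds both the group differences and the spread within groups, and is given as a description of libraries that share their groups. Left out of this search were predicted genes (Gm and a number), Rik and LOC names, antibody and T cell receptor segments, and names that read as dates. Ica1 (0.94), Habp2 (0.93) and Mmp2 (0.92) were nearest to Mmp7, and with group means removed Habp2 was at 0.90. Mtmr10, Ica1 and Sgsm3 were nearest to Mmp2 (0.95 to 0.96). Anxa1, Etv5 and Nkd1 were nearest to Mmp14 (0.99 for each, and 0.92 within groups). Mmp10 had Il1rl1, Runx1 and Foxa1 (0.97), and Mmp13 had Loxl4 (0.97), Mtap and Onecut3 (0.96). Pfkl (0.98), Grhpr and Rgl2 (0.94) were nearest to Mmp15, and Ifitm2, Ecscr (0.98) and Arg1 (0.97) to Timp1. Timp2 had Fgfr1, Slc48a1 (0.94) and Dapk1 (0.93), and Timp3 had Adamts1 (0.96), Dapk1 and Gkap1 (0.95). Between members, Mmp14 and Timp1 had the highest correlation (0.97, and 0.69 within groups), and Timp2 and Timp3 were at 0.84 (0.70 within groups). Mmp15 was negative within groups to 7 of the other 8 members, from -0.30 to -0.64, and at 0.12 to Mmp13.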

How the data were processed

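The authors deposited a table of RPKM values, reads per kilobase scaled to the library's reads, for 24795 gene rows and 20 libraries, made with CASAVA 1.8, HISAT2 2.0.4 and Partek on the mm10 build per the submitters' processing notes. The unit is not named in the file and was inferred: values are not whole, and the step between low values varies by gene. Annotation, strand setting and tool parameters: not given in the sources used here. Groups and replicate numbers came from the labels. RPKM divides by the library total, so a change in abundant genes moves all others.

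The filter kept the 12433 genes that reached 1 RPKM in 6 libraries or more. A gene high only in control libraries could pass it, as Spp1 and Il1a did. For such genes the filter partly fixes the direction of the difference. Counts of list genes lower with DM-aKG, or higher in control than in WT, are thus partly set by it. Values were fitted as log2(RPKM + 1), with a pseudocount of 1, for the 3 groups by limma 3.58.1 (R 4.3.3; trended and robust empirical Bayes through statmod 1.5.0), 2-sided, with Benjamini-Hochberg adjustment over all tested genes, and the fit was tested on simulated data. Of the low values, 65.5 to 71.1% came out as whole reads (tolerance 0.1 read, up to 8 reads), where an even spread gives 20%. This share was too low for counts to be rebuilt, and a count model was not used. Positions are from GENCODE M21. Figures used Python 3.11.15 with matplotlib 3.10.9.

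The members and the gene lists were chosen with earlier results of these data known. Named genes were the 9 members, up to 4 tested genes of each list with the smallest p for DM-aKG against control, and 3 genes most correlated with each member. Other genes named to complete a count of a list were named after their values were seen, as were Syn1, Syn3, AV064505 and Rn45s. Alternatives varied the pseudocount, filter, scaling, weights and libraries, with the replicate number as a block. No pair of libraries held identical values.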

Additional observations from a re-analysis of the deposited data

Results flagged for a closer look

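Each member was examined in each of the 3 groups, 27 sets of values in all, for a library separated from the rest by a gap that is large for the range of its group (Dixon's ratio, 95% critical value). Chance alone marks about 1 in 20 such sets, and 3 were marked. Mmp10 in control Apc Min had its lowest library, replicate 1, at 24.93 RPKM, with the next at 56.04. Mmp10 with DM-aKG had its highest library, replicate 2, at 31.74 RPKM, with the next at 9.93. Mmp15 in WT had its highest library, replicate 4, at 8.521 RPKM, with the next at 6.946.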

How the results depend on the processing

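Each of the 3 comparisons was fitted under 32 alternatives, 864 values for the members, of which 831 kept their direction and their side of the threshold. Mmp10, Mmp13, Mmp14 and Timp1 were called for DM-aKG against control in all 32. The sign of Timp2 in that comparison turned under quantile normalization (0.07), median-of-ratios scaling (0.09), in replicates 1 to 4 (0.03) and without DM-aKG replicate 1 (0.00; leaving out 1 library at a time gave -0.16 to 0.00). For DM-aKG against WT the sign of Mmp10 turned with array weights (-0.31), in replicates 5 to 7 (-0.02) and without DM-aKG replicate 2 (-0.11; leaving out 1 library at a time gave -0.11 to 0.43), and that of Mmp7 in replicates 5 to 7 (-0.73). None of these values was called, and the cause was not tested.

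The count of genes called for DM-aKG against control was 4167 and fell to 2225 in replicates 1 to 4. For DM-aKG against WT, 4873 genes and 5 members fell to 547 genes and 2 members in replicates 5 to 7. Both have fewer samples. The test of the difference between these sets called 26 genes, and 14 without the filter on low values. Leaving out 1 library at a time gave 3441 to 4574 genes and 5 to 7 members for DM-aKG against control.

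Same-numbered libraries deviated together in 8 of 19 pairs (correlation over 0.1, range -0.457 to 0.604), and 2 correlated best with their own number. These values do not show that the labels' numbers pair the samples, and they cannot exclude it. With the replicate number as a block, 4361, 7759 and 5486 genes and 7, 9 and 6 members were called in the 3 comparisons (4167, 7316 and 4873 genes and 7, 9 and 5 members without it), Mmp2 being added against WT (0.57, adjusted p = 0.0396). The WT level of Timp1, near 7 reads at its lowest, is the member value that depth limits most.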
